A study of Mus musculus with 60 samples.

Results

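The 10 genes described here are AP-1 and immediate early genes. The products of Fos, Fosb, Jun, Junb, Jund and Atf3 pair into the AP-1 transcription factors. Egr1 and Egr3 are zinc finger factors, and Ier2 and Btg2 are early response genes. All 10 were measured in lymphomas and normal lymphoid tissue of the mouse on 60 Affymetrix whole-genome mouse arrays. These arrays read each transcript with 1 or more sets of short probes. A gene's members were the probe sets that name it alone, 14 for these 10 genes out of 18193 genes named alone on the array, and each gene was followed through the probe set of the highest mean over all arrays, called its first, with any other, called its second, beside it. All 10 such probe sets exceeded the median of their own array on at least 10 arrays, the filter for testing. Fosb did so on 13 arrays only, so its values lie near the dim end of the array.

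The study compared lymphomas of Em-myc transgenic mice, which carry Myc behind the immunoglobulin heavy chain enhancer that is active in the B lineage, by age of onset. The early lymphomas, 25 in number, arose at 32 to 76 days of age (median 65). The late lymphomas, also 25, arose at 253 to 649 days (median 398). The 10 normal tissues came from Wildtype mice: 6 lymph nodes taken at 38 to 73 days, called young, and 3 lymph nodes and 1 spleen taken at 304 to 438 days, called old. Lymphomas and normal tissues are numbered as in their titles, and the labels do not say which samples share a litter or a processing day, so each p-value rests on the spread among these arrays alone, part of which may be technical.

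In resting cells most immediate early genes are transcribed weakly, and a growth factor, antigen receptor or stress signal raises them within minutes without new protein synthesis, through serum response factor, its ternary complex partners and CREB at their promoters. Fos and Jun proteins dimerise through leucine zippers and bind AP-1 sites, and Jun homodimers and heterodimers with ATF proteins bind CREB-like sites. In lymphocytes antigen receptor signalling induces Egr1, Egr3, Fos and Ier2, while Btg2 is an antiproliferative gene and a p53 target.

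The promoter sequences of 7 of the 10 genes were matched in RefSeq (GRCm38.p6). Those of the 4 members that were higher in late than in early lymphomas, Fos, Jun, Jund and Btg2, are printed to show the control elements next to their starts, with Junb, which did not differ, beside them. Each line holds the 170 bases before the transcript start, 5′ to 3′ on the gene's strand, with motif matches in capitals. The stretches are chr12:85473720-85473889 (plus strand) for Fos, chr4:95052223-95052392 (minus) for Jun, chr8:70697569-70697738 (plus) for Jund, chr1:134079156-134079325 (minus) for Btg2 and chr8:84978749-84978918 (minus) for Junb.
Fos: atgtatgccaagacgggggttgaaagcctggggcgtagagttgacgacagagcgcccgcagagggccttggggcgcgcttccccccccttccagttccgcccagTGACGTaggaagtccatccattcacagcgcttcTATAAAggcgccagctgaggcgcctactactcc
Jun: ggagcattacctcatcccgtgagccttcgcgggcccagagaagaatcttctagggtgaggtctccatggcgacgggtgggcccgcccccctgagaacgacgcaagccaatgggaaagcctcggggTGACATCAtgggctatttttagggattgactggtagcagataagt
Jund: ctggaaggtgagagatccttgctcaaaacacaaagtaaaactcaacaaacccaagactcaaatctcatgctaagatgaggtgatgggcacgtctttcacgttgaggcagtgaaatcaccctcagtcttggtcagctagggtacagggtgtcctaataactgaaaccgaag
Btg2: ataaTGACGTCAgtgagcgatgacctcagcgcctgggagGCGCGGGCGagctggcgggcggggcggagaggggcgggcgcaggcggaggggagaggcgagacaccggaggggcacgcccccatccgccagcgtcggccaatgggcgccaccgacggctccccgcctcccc
Junb: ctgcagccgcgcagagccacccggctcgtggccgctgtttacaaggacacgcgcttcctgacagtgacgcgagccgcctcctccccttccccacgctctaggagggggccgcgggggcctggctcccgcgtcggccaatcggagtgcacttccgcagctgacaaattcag
The search covered 250 bases before each start on both strands, for the CREB core TGACGT, the full CREB site TGACGTCA, the Jun-type site TGACATCA, the AP-1 site TGANTCA, the Egr site GCGNGGGCG, the TATA box TATAAA and the CArG box of serum response factor. Fos held TGACGT 66 to 61 bases and TATAAA 33 to 28 bases before its start. TGACGT occurs in 6.469% and TATAAA in 12.37% of the 32851 mouse promoter windows in the table. Jun held TGACATCA 45 to 38 bases before its start, a motif found in 2.928% of windows. Btg2 held TGACGTCA 166 to 159 bases before its start, which contains TGACGT on both strands, and GCGNGGGCG at 131 to 123 bases. These motifs occur in 1.546% and 4.697% of windows. Of the promoters not printed, Fosb held GCGNGGGCG 50 to 42 bases before its start, and Atf3 held TGACGT on the minus strand at 8 to 3 bases. Junb and Jund matched no motif, and TGANTCA (6.749% of windows) and the CArG box (1.467%) were matched in none of the 7. Sites farther upstream than these 250 bases were not searched, so a gene without a match here may still have one. Such a match describes letters in this window and is not evidence of binding.

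Array values were scaled intensities, used as log2(intensity + 15.7), the added 15.7 being the table median, 157, over 10. The median intensity of an array was 124 to 206 in early lymphomas, 122 to 184 in late lymphomas and 183 to 198 in normal tissues. Myc read 8909 to 18542 in early and 4964 to 19707 in late lymphomas against 880.3 to 1606 in normal tissue, without overlap. The transgene and the mouse's own Myc were not told apart, and the Wildtype tissues carry no transgene. The B lineage markers, whose mean log2 level was 11.1 to 11.9 in normal tissue, were below every normal tissue in 1 early lymphoma (number 6, 9.07) and in 13 late lymphomas (lowest in number 130). An alternative left out 6 lymphomas of low B lineage level, early 6 and late 117, 127, 130, 131 and 133 (8.20 to 9.77), and kept late lymphoma 138 (9.48). All 50 lymphomas lay below every normal tissue in the T cell list, 24 early and 19 late lymphomas did so in the macrophage list, 24 and 18 in the list for stroma and endothelium, and 25 and 17 in the plasma cell list. No marker was at 0 in any group, which does not show that each was detected, since dim probe sets also read above 0. In whole tissue, fewer cells of a type and less RNA per cell cannot be told apart. Late lymphomas 120, 125, 129, 137 and 138 stood apart in the plasma cell list (13.1 to 13.3 against 9.11 to 11.3 in the other 20), and late lymphoma 136 reached 14.9 in the neutrophil list.

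The first comparison, late against early lymphomas, asks which members differ with the age of onset. Fos, Jun, Jund and Btg2 were higher in late lymphomas, Egr3 was lower by 1 of its probe sets, and the changes of Fosb, Junb, Egr1, Atf3 and Ier2 did not pass the test. Thus 5 of 10 members were called at an adjusted p under 0.05 by limma with Benjamini-Hochberg adjustment over 27094 probe sets. The share of all probe sets called was 22.0%, with 9.58% higher and 12.4% lower in late lymphomas, against 4 and 1 of the 10 members. The median change of the members was 0.36 on the log2 scale, and that of all probe sets 0.001. In the same comparison 4 of 5 plasma cell, 3 of 8 macrophage and 2 of 7 T cell markers were higher, and 4 of 5 B lineage markers were lower, and their part was not tested.

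**Figure D1:**
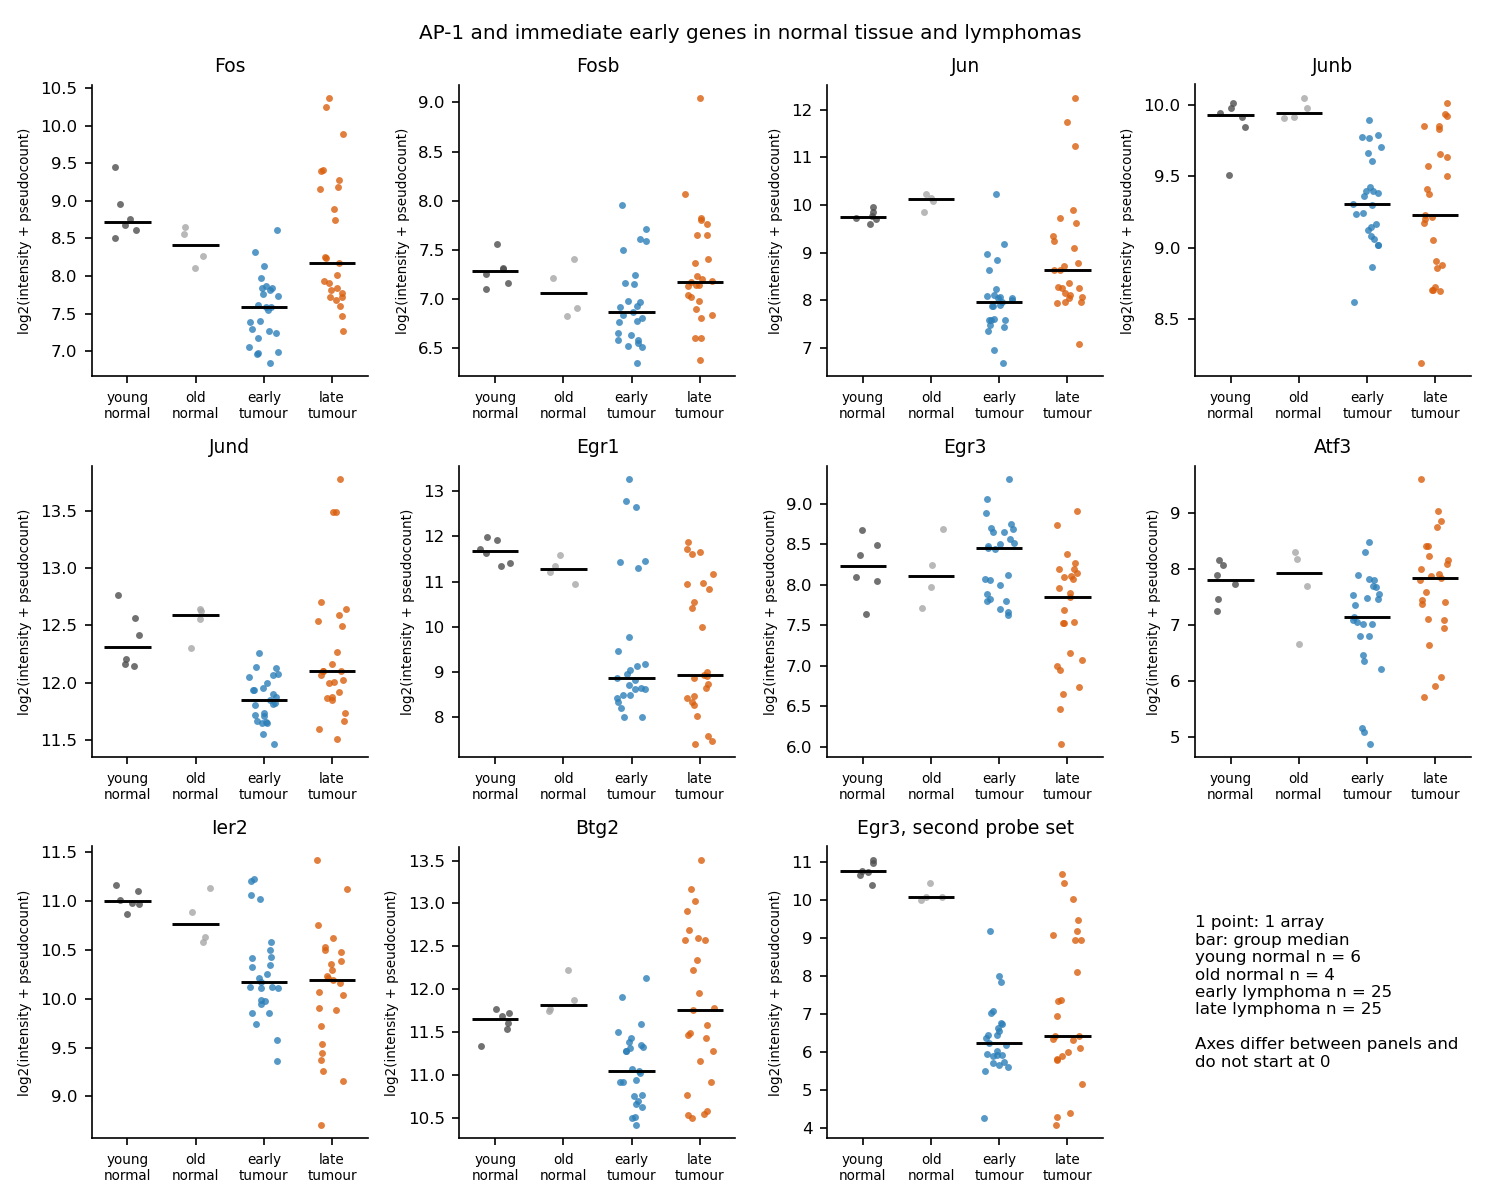
Log2(intensity + pseudocount) of the representative probe set of each of the 10 genes, and of the second Egr3 probe set, on every array, in 1 panel per gene. Points are arrays grouped as young normal (6), old normal (4), early tumour (25) and late tumour (25), and bars mark group medians. Late lymphomas above every normal tissue number 3 for each of Fos, Jun and Jund and 9 for Btg2, and Egr1 shows 6 early lymphomas apart from the other 19.

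Against normal tissue the members were mostly lower. In early lymphomas 8 of 10 members were called lower and none higher, where 39.8% of all probe sets were called lower and 28.4% higher (68.1% in all). In late lymphomas 5 members were called lower and none higher, where 32.4% of probe sets were called lower and 22.4% higher (54.8% in all). The late count became 3 after centring each array on its median. Against the 4 old normal tissues alone only Junb was called (-0.68, adjusted p = 0.031). Junb's adjusted p over 13 alternatives ran from 0.00017 to 0.031. The median change of the members was -0.65 in early and -0.36 in late lymphomas, beside -0.12 and -0.09 over all probe sets. The same 10 normal tissues serve both comparisons, so their values are set side by side only. Scaling bears on these directions. Quantile normalization moved the median change of all probe sets to 0.09 in early and 0.09 in late lymphomas, and centring moved both to 0.15. The share of called probe sets that were higher went from 41.6% to 55.1% and 60.0% in early lymphomas, and from 40.9% to 56.4% and 62.5% in late ones. The direction of each member called against normal tissue held under both scalings, while the sign of Fosb, Fos, Jund, Atf3 or Btg2 changed where they were not called.

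**Figure D2:**
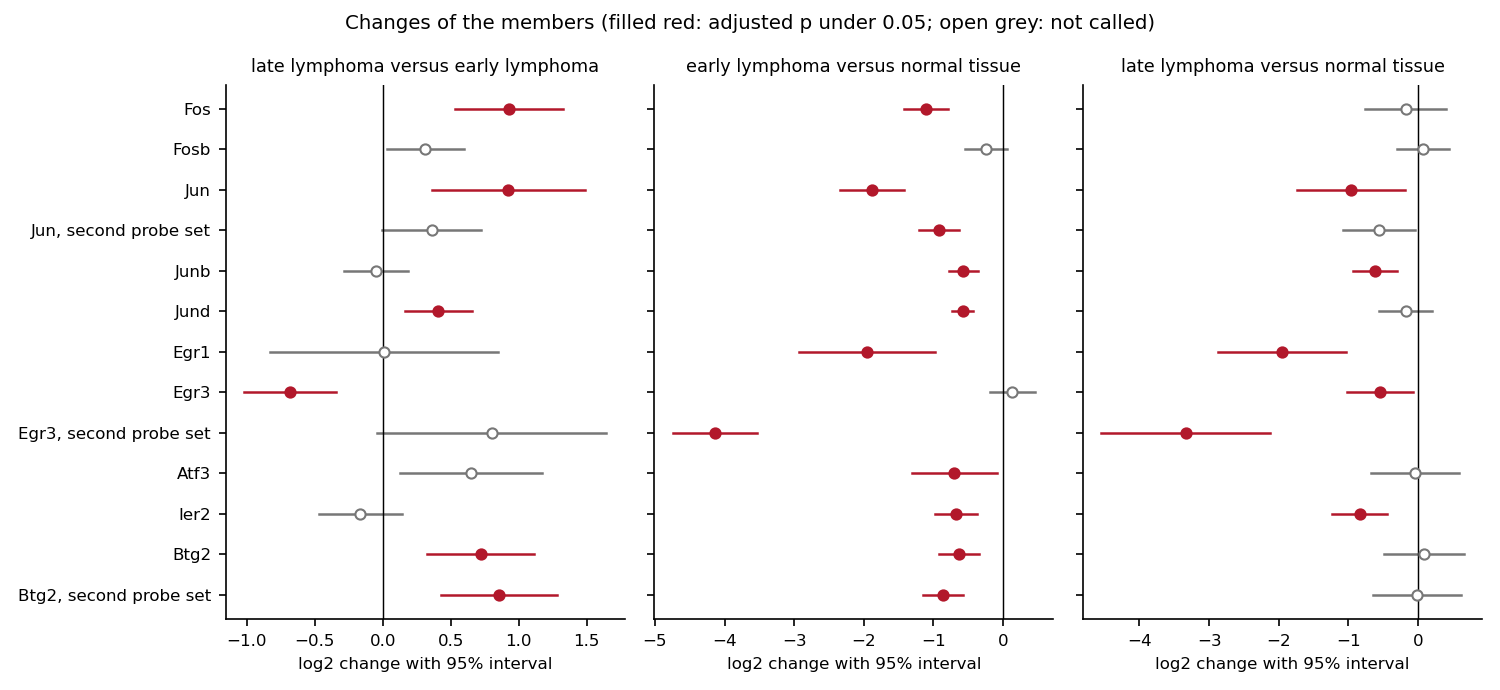
Log2 change with its 95% interval for every kept probe set of the members, in 3 panels: late against early lymphoma, early lymphoma against normal tissue and late lymphoma against normal tissue. Filled red points have an adjusted p under 0.05 in limma and open grey points do not. Late minus early changes run from -0.68 for Egr3 to 0.93 for Fos, and the second Egr3 probe set lies farthest below normal tissue, at -4.14 in early lymphomas.

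Fos encodes the AP-1 partner that is induced and degraded fastest. Its log2 level was 6.84, 7.59 and 8.61 (lowest, median and highest) in early lymphomas, 7.27, 8.17 and 10.37 in late lymphomas and 8.11, 8.63 and 9.46 in normal tissue. Of the early lymphomas 22 lay below every normal tissue, against 12 of the late ones, while 10 late lymphomas exceeded the highest early one. Late lymphomas 137 (10.37), 112 (10.25) and 124 (9.88) exceeded every normal tissue. Fos was 0.93 ± 0.20 (SE) log2 units higher in late than in early lymphomas, 1.90-fold (adjusted p = 0.0012). It was lower than normal in early lymphomas by -1.10 ± 0.16 (adjusted p = 9.7e-08). The late lymphomas differed from normal tissue by -0.18 ± 0.29 (adjusted p = 0.63), an estimate that quantile normalization and centring turned to 0.09 and 0.06. Fosb, a second Fos protein, ran from 6.35 through 6.87 to 7.96 in early, from 6.38 through 7.18 to 9.05 in late and from 6.83 through 7.23 to 7.56 in normal tissue. The groups overlapped, late lymphoma 114 was highest, and no contrast was called (0.31 ± 0.14 between late and early, adjusted p = 0.10).

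Jun is the founding member of the family that Fos proteins pair with, and it can also pair with itself. It read 6.68, 7.96 and 10.23 in early lymphomas, 7.07, 8.63 and 12.25 in late lymphomas and 9.61, 9.86 and 10.23 in normal tissue. Below every normal tissue lay 24 early and 19 late lymphomas, early lymphoma 6 being the exception among the former. Late lymphomas 137 (12.25), 138 (11.74) and 120 (11.24) lay above every other array. Jun was 0.92 ± 0.28 higher in late than in early lymphomas (adjusted p = 0.015), -1.88 ± 0.23 from normal in early ones (adjusted p = 2.6e-09) and -0.96 ± 0.38 in late ones (adjusted p = 0.033). The last call was lost under quantile normalization (-0.85, adjusted p = 0.051) and centring (-0.72, adjusted p = 0.093), without the 6 lymphomas of low B lineage level (-0.91, adjusted p = 0.066), and without old normal tissue 7 or 8. Over 13 alternatives its adjusted p ran from 6.4e-07 to 0.14. Its second probe set gave 0.36 ± 0.18 between late and early lymphomas (adjusted p = 0.14), -0.92 in early against normal (adjusted p = 5.1e-07) and -0.56 ± 0.25 in late against normal (adjusted p = 0.058), so the late-over-early call rests on 1 of 2 probe sets.

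Junb, a Jun protein that often restrains Jun, and Jund, the Jun protein that resting cells express most steadily, are the other Jun proteins. Junb read 8.62, 9.31 and 9.89 in early, 8.19, 9.23 and 10.01 in late and 9.51, 9.93 and 10.05 in normal tissue. Most lymphomas of both onsets, 18 early and 16 late, lay below every normal tissue. The early lymphomas differed from normal by -0.57 ± 0.10 (adjusted p = 9.2e-06) and the late ones by -0.62 ± 0.16 (adjusted p = 0.0010). Late minus early was -0.05 ± 0.12, with a 95% interval from -0.28 to 0.18. Jund read 11.46, 11.85 and 12.26 in early, 11.51, 12.10 and 13.78 in late and 12.14, 12.49 and 12.76 in normal tissue. Below every normal tissue lay 24 early and 15 late lymphomas, while 9 late lymphomas exceeded the highest early one. Jund was 0.41 ± 0.12 higher in late than in early lymphomas (adjusted p = 0.014) and -0.58 ± 0.08 from normal in early ones (adjusted p = 2.2e-08). Late lymphomas differed from normal by -0.17 ± 0.19 (adjusted p = 0.45), 0.07 after centring. Jund was called lower there under quantile normalization and without the 5 late lymphomas of highest plasma cell level. Over 13 alternatives the estimate ran from -0.45 to 0.07 and its adjusted p from 0.0013 to 0.77. Its second probe set was too dim to test.

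Atf3, a stress-induced repressor that also pairs with Jun, read 4.87, 7.15 and 8.48 in early, 5.70, 7.85 and 9.62 in late and 6.66, 7.81 and 8.31 in normal tissue. The 3 groups overlapped widely. It was -0.70 ± 0.30 from normal in early lymphomas (adjusted p = 0.040). That call was lost under quantile normalization (-0.36, adjusted p = 0.29) and centring (-0.43, adjusted p = 0.21), and without any one of 12 of the 35 arrays (early lymphomas 5, 11, 13, 19 and 23, young normals 1, 2, 5 and 6, and old normals 7, 8 and 10). Its adjusted p over 13 alternatives ran from 0.025 to 0.29. Between late and early lymphomas it differed by 0.65 ± 0.26 (adjusted p = 0.065). That adjusted p ran from 0.044 to 0.22 over 11 alternatives. Leaving out any one of 6 of the 50 lymphomas brought it under 0.05, to 0.034 at the lowest.

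Egr1 encodes the zinc finger factor that antigen receptor and ERK signals raise first. It split the early lymphomas. Numbers 3 (13.28), 1 (12.79), 28 (12.66), 6 (11.46), 5 (11.44) and 11 (11.29) stood above the other 19, which ran from 8.01 to 9.78, and 3 of the 6 exceeded every normal tissue (10.94 to 11.98). Late lymphomas read 7.40, 8.94 and 11.89, the highest being 121 (11.89), 130 (11.73), 135 (11.65) and 123 (11.60). Thus 19 early and 18 late lymphomas lay below every normal tissue, and the SD was 1.60 in early and 1.48 in late lymphomas against 0.32 in normal tissue. The mean was -1.96 ± 0.48 from normal in early (adjusted p = 0.00048) and -1.95 ± 0.45 in late lymphomas (adjusted p = 0.00040). The late call was lost against old normal tissues alone (-1.72, adjusted p = 0.058, from 0.00012 to 0.058 over 13 alternatives). Late and early lymphomas differed by 0.006 ± 0.42 (adjusted p = 0.99), so a difference within that wide error was not detectable.

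Egr3, a later member of the same family, was read by 2 probe sets that differed in which contrasts passed. The first read 7.63, 8.45 and 9.31 in early, 6.04, 7.84 and 8.91 in late and 7.64, 8.17 and 8.69 in normal tissue. In 11 late lymphomas it lay below every early lymphoma and every normal tissue. It was -0.68 ± 0.17 in late against early lymphomas (adjusted p = 0.0039) and -0.55 ± 0.24 in late against normal (adjusted p = 0.048), a call lost when any of 20 of the 35 arrays was left out and under both other scalings. Against normal, early lymphomas differed by 0.14 ± 0.16 (adjusted p = 0.47), called higher under quantile normalization (0.46, adjusted p = 0.0066) and centring (0.40, adjusted p = 0.021). The second read 4.27, 6.24 and 9.19 in early, 4.08, 6.43 and 10.69 in late and 10.00, 10.56 and 11.07 in normal tissue. All 25 early and 22 of the late lymphomas lay below every normal tissue. It exceeded its array's median in 3 early, 10 late and all 10 normal tissues, so it was dim in most lymphomas. Either the 10 late lymphomas or the 10 normal tissues alone would meet the filter of 10 arrays. It was -4.14 ± 0.30 from normal in early lymphomas (adjusted p = 4.6e-15), -3.34 ± 0.60 in late ones (adjusted p = 1.2e-05) and 0.80 ± 0.42 between late and early (adjusted p = 0.16). The size of the first value moved with the pseudocount, from -3.48 with one 4 times larger to -4.48 with one 10 times smaller. The last was called without the 6 lymphomas of low B lineage level (1.25, adjusted p = 0.014, from 0.014 to 0.33 over 9 alternatives). Late against normal, both probe sets were lower and called. Between late and early, and between early and normal, they differed in sign with 1 of the 2 called, and which transcript each reads was not tested.

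Ier2, an early response gene of the nucleus, read 9.36, 10.17 and 11.22 in early, 8.71, 10.19 and 11.42 in late and 10.58, 10.98 and 11.16 in normal tissue. Below every normal tissue lay 20 early and 21 late lymphomas, and the highest early values were in lymphomas 3, 6, 28 and 1. Ier2 was -0.67 ± 0.15 from normal in early (adjusted p = 0.00016) and -0.84 ± 0.20 in late lymphomas (adjusted p = 0.00043). The late call was lost against old normal tissues alone (-0.72, adjusted p = 0.069, from 0.00012 to 0.069 over 13 alternatives). Late and early lymphomas differed by -0.17 ± 0.15 (adjusted p = 0.46). Btg2, which slows the G1 to S transition, read 10.42, 11.05 and 12.14 in early, 10.50, 11.76 and 13.51 in late and 11.34, 11.74 and 12.23 in normal tissue. The late lymphomas spanned both sides of normal, with 8 below and 9 above every normal tissue, whereas 18 early ones lay below. It was 0.72 ± 0.20 higher in late than in early lymphomas (adjusted p = 0.0074), -0.63 ± 0.14 from normal in early ones (adjusted p = 0.00014) and 0.09 ± 0.28 in late ones (adjusted p = 0.82), the last turning to -0.13 under quantile normalization. Its second probe set gave 0.85 ± 0.21 between late and early lymphomas (adjusted p = 0.0040) and -0.86 in early against normal (adjusted p = 1.1e-06).

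Late lymphomas 120, 125, 129, 137 and 138, those of the highest plasma cell marker level, held many of the high late values of Jun, Jund and Btg2. Jun in 125 (8.63) was no higher than in many others, and 4 of the 9 late lymphomas with Btg2 above every normal tissue were others (133, 117, 113 and 131). Jun had a median of 11.2 in these 5 and 8.27 in the other 20. Jund had 13.5 and 12.0, Btg2 12.9 and 11.5, and Fos 9.15 and 7.97. The plasma cell list itself, which holds Jchain, Prdm1, Xbp1, Irf4 and Sdc1, had 4 of 5 genes higher in late than in early lymphomas, among them Jchain, which joins secreted antibody (2.15 ± 0.54, adjusted p = 0.0043), and Xbp1, a secretory regulator (0.94 ± 0.25, adjusted p = 0.0070). The 5 lymphomas also had higher medians in the macrophage list (12.0 against 11.2 in the other 20), the list for stroma and endothelium (10.7 against 9.59) and the T cell list (8.95 against 7.91), and a lower one in the B lineage list (10.4 against 11.4). The part of plasma or other cells in these results was not tested.

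**Figure D3:**
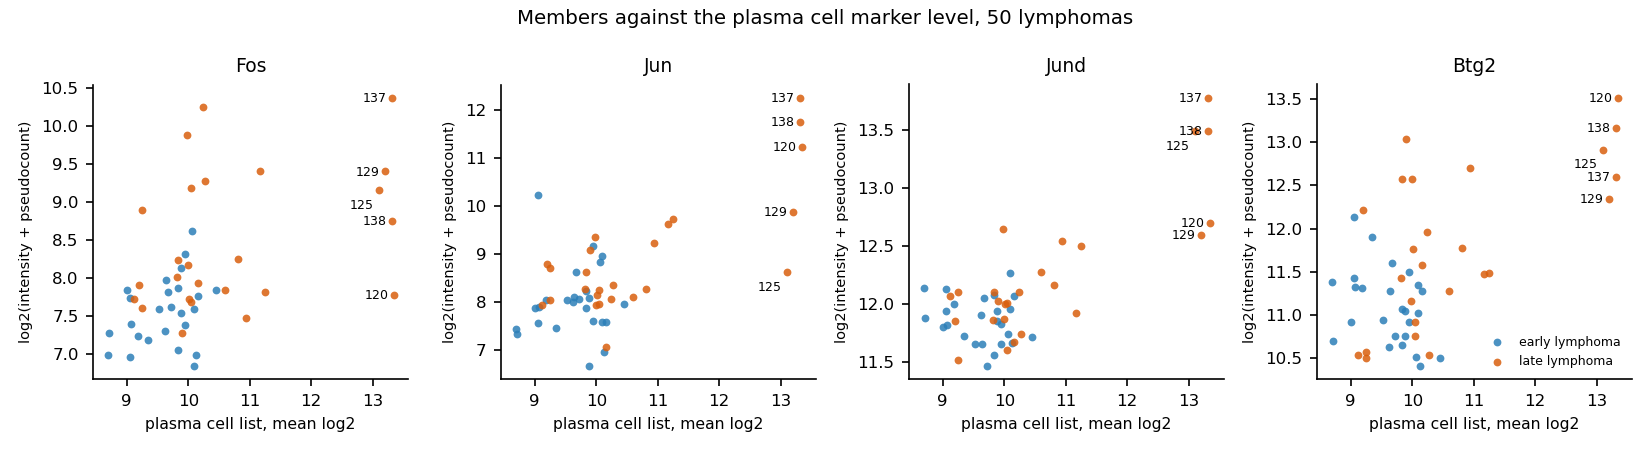
Log2(intensity + pseudocount) of Fos, Jun, Jund and Btg2 against the mean log2 level of the 5 plasma cell markers in the 50 lymphomas, early and late in separate colours. The 5 late lymphomas at a plasma level of 13.1 to 13.3 hold the 3 highest Jun values and lie to the right of all others.

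In the 20 other late lymphomas against the early ones, an alternative chosen after seeing the data, 2 of 10 members were called between late and early lymphomas: Fos (0.77, adjusted p = 0.010) and the first Egr3 probe set (-0.60, adjusted p = 0.023). Jun then differed by 0.47 (adjusted p = 0.14), Jund by 0.17 (adjusted p = 0.15) and Btg2 by 0.45 (adjusted p = 0.10). Of all probe sets 2367 were called instead of 5951. Against normal tissue 5 members were again called in number, with Jund now among them at -0.41 (adjusted p = 0.0013). The 5 lymphomas also had low ratios of the 3′ to the 5′ Gapdh control, a measure of RNA and labelling quality. Their log2 ratios were -0.609 to -0.478, against -0.493 to -0.297 in the other 20 late ones. A low ratio means more 5′ signal relative to 3′ signal, and is not by itself a sign of poor RNA. With the Gapdh and actin ratios in the fit, Fos (0.84, adjusted p = 0.015) and Egr3 (-0.77, adjusted p = 0.011) were called, and Jun (0.61, adjusted p = 0.17), Jund (0.26, adjusted p = 0.19) and Btg2 (0.56, adjusted p = 0.090) were not. Over 11 alternatives of the late against early fit, the adjusted p ran from 0.00035 to 0.015 for Fos, from 0.0070 to 0.17 for Jun, from 0.0073 to 0.19 for Jund and from 0.0030 to 0.10 for Btg2. The first Egr3 probe set kept its call in the 10 alternatives that used it alone. Without the 6 lymphomas of low B lineage level 5 members were again called between late and early lymphomas, and 3 between late lymphomas and normal tissue. Within the 50 lymphomas Jun (-7.01 ± 2.12 log2 units per unit of the log2 Gapdh ratio, adjusted p = 0.021) and Jund (-2.76 ± 0.94, adjusted p = 0.041) fell with the ratio, 2 of 10 members, where 13.9% of probe sets were called and 6.89% fell. Without the 5 lymphomas Jun had a slope of -0.20 (adjusted p = 0.99, from 0.019 to 0.99 over 8 alternatives) and limma called 0 probe sets (2013 at an unadjusted p under 0.05).

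Tumour-to-tumour spread was compared through each array's absolute deviation from its group median. It was wider in late lymphomas for Btg2 by 0.41 ± 0.12 log2 units (adjusted p = 0.022) and for Jund by 0.25 ± 0.09 (adjusted p = 0.048), 2 of 10 members, where 10.1% of probe sets were called. The second Btg2 probe set widened by 0.49 ± 0.14 (adjusted p = 0.017), and the second Egr3 probe set, which went as high as 10.69 in late lymphomas, by 0.93 ± 0.30 (adjusted p = 0.036). Fos widened by 0.37 ± 0.13, which missed the threshold (adjusted p = 0.052). Egr1, spread widely in both groups, differed by 0.18 ± 0.32 (adjusted p = 0.77). Without the 5 lymphomas of high plasma level the values were 0.27 for Btg2 (adjusted p = 0.20), 0.06 for Jund (adjusted p = 0.54) and 1.11 for the second Egr3 probe set (adjusted p = 0.044). Over all alternatives the adjusted p ran from 0.014 to 0.20 for Btg2, from 0.041 to 0.54 for Jund and from 0.022 to 0.071 for the second Egr3 probe set. For Fos it ran from 0.034 to 0.29, so whether Fos was called depended on the setting.

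Early lymphomas come from young and late lymphomas from old mice, so old and young normal tissues were set beside them. Of the 10 members 0 were called by limma (4 at an unadjusted p under 0.05), where 374 of all probe sets, 1.38%, were. An unadjusted p under 0.05 was held by 4448 of the 27094 probe sets. Fos read 9.46, 8.96, 8.61, 8.75, 8.51 and 8.68 in young normals 1 to 6, and 8.11 in the spleen and 8.65, 8.26 and 8.56 in the lymph nodes among the old. Old and young values overlapped, and the difference was -0.43 ± 0.18 (adjusted p = 0.27), opposite in sign to the 0.93 between late and early lymphomas. The difference between those differences was 1.36 ± 0.46 (adjusted p = 0.56). In that interaction limma called 0 members (1 at an unadjusted p under 0.05), where 0.0258% of probe sets were called. Without adjustment 1884 of the 27094 probe sets were under 0.05. The second Egr3 probe set was -0.62 ± 0.13 in old tissue (adjusted p = 0.047), from 10.41 to 11.07 in young and 10.09, 10.08, 10.46 and 10.00 in old tissue, and that call was lost without any one of 8 of the 10 normal tissues.

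Age of onset within each group gave no called member. Among early lymphomas 8.98% of probe sets were called, and Egr1 had a slope of -2.61 ± 0.91 log2 units per doubling of age (adjusted p = 0.068). Among late lymphomas 0.0111% were called, and Jun had a slope of 1.95 ± 0.55 (adjusted p = 0.11) and by its second probe set 1.32 ± 0.36 (adjusted p = 0.11). In limma 4 of 10 members had an unadjusted p under 0.05 among early and 2 among late lymphomas. So did 6947 of the 27094 probe sets among early and 5839 among late lymphomas.

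How the members varied together was measured across the 50 lymphomas with group means removed, for 45 pairs, by Pearson's r and Spearman's rho with permutation within groups and adjustment over the 45. Egr1 is left out of this account because its levels split the lymphomas into clusters. Of the 36 other pairs 10 passed with both measures, 9 of them positive. The arrays share their scaling and cell makeup, and how often pairs of other genes pass was not tested. The count is therefore no sign of a link particular to these genes. Fos and Junb, which can form an AP-1 dimer, had r = 0.60 and rho = 0.56 (adjusted permutation p = 0.0015 and 0.0029, 0.56 without the 2 farthest tumours). In late lymphomas alone the r of Fos and Junb was 0.69, and 0.77 without the 5 of high plasma level (adjusted permutation p = 0.0036). Fos also varied with Ier2 (r = 0.46, rho = 0.44, adjusted permutation p = 0.0089 and 0.0099, 0.48 without the 2 farthest) and with Atf3 (r = 0.44, rho = 0.47, adjusted permutation p = 0.0089 and 0.0053, 0.48).

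Jun and Jund had r = 0.65 and rho = 0.50 (adjusted permutation p = 0.0015 and 0.0053), and r = 0.42 without the 2 farthest tumours. Jun with Btg2 (r = 0.51, rho = 0.41, 0.44 without the 2 farthest) and Jund with Btg2 (r = 0.55, rho = 0.46, 0.50) passed as well, at adjusted permutation p of 0.0051 for r. Without the 5 plasma-high lymphomas the r over the other 45 was 0.36 for Jun and Jund (adjusted permutation p = 0.047), 0.27 for Jun and Btg2 and 0.30 for Jund and Btg2 (adjusted permutation p = 0.18 for both). Jun and Junb (r = 0.50, rho = 0.47, 0.47 without the 2 farthest) and Junb and Ier2 (r = 0.45, rho = 0.49, 0.54) passed at adjusted permutation p of 0.0051 and 0.010. Junb and Ier2 passed within early lymphomas too (r = 0.61, adjusted permutation p = 0.019). Ier2, however, split the early lymphomas where Egr1 did. It read 10.5 to 11.2 in the 6 of high Egr1 and 9.365 to 10.4 in the other 19, and Junb had medians of 9.73 and 9.23 there. The pairs with Ier2 given here span both sets. The dim Fosb went with the first Egr3 probe set (r = 0.40, rho = 0.40, adjusted permutation p = 0.025, 0.40), but with the second it did not pass (r = 0.30, rho = 0.31, adjusted permutation p = 0.10 and 0.073, 0.29). The second Egr3 probe set went with Ier2 (r = 0.61, rho = 0.68, adjusted permutation p = 0.00015 for both, 0.57). Ier2 and Btg2 ran in opposite directions (r = -0.40, rho = -0.37, adjusted permutation p = 0.028 and 0.043, -0.31 without the 2 farthest). In late lymphomas their r was -0.58, and -0.68 without the 5 of high plasma level (adjusted permutation p = 0.025).

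**Figure D4:**
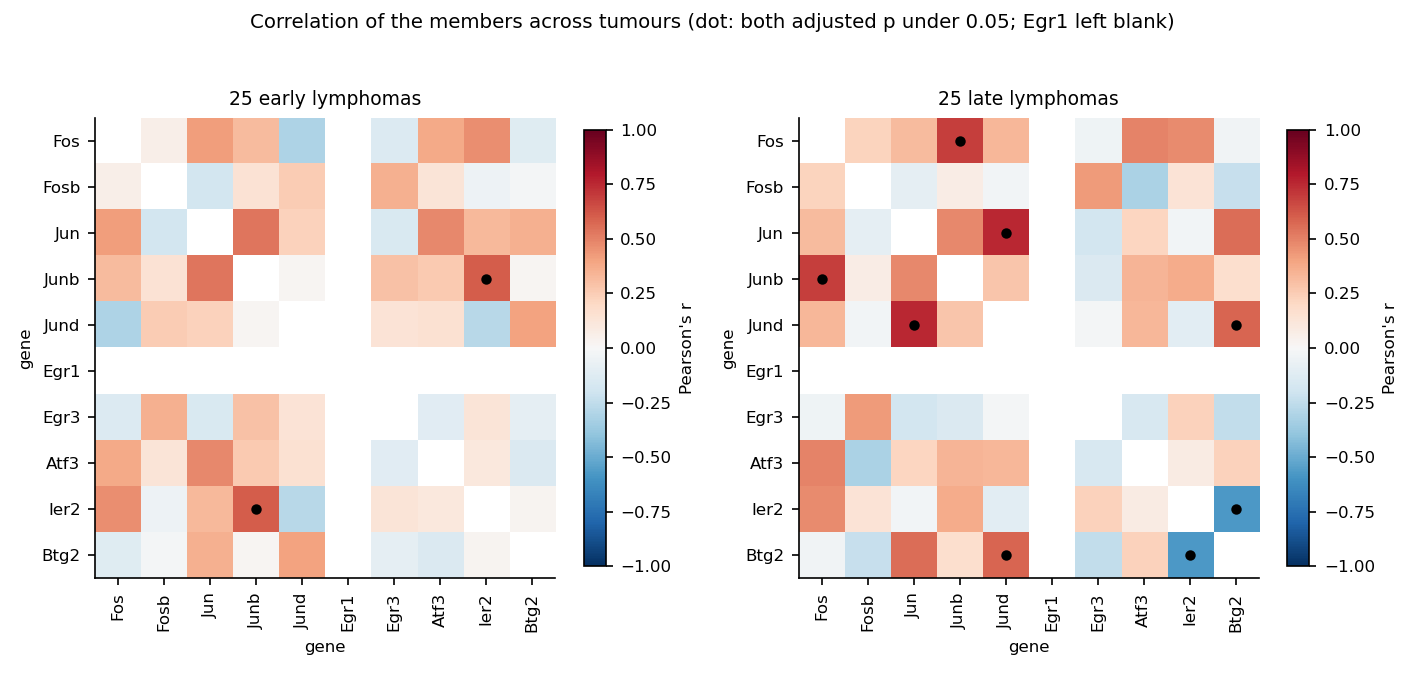
Pearson's r between each pair of the 10 genes across the 25 early and the 25 late lymphomas, as a colour from -1 to 1, with a dot where both adjusted permutation p-values are under 0.05. Egr1 is blank, since its levels form clusters. In late lymphomas Fos with Junb (0.69) and Jun with Jund (0.76) are among the dotted pairs, and Ier2 with Btg2 is negative (-0.58).

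Egr1 left its widest gap between 9.78 and 11.29 in early lymphomas (19 below, 6 above) and between 8.99 and 10.0 in late ones (14 below, 11 above), so its relations with 10 readouts of the other members were computed within each cluster. Adjustment was over the 10 relations of a single cluster, and not over all clusters together. In the 11 late lymphomas of high Egr1, it went with the second Egr3 probe set (r = 0.91, rho = 0.86, permutation p = 0.00015, adjusted p = 0.0015, r = 0.83 without the 2 farthest) and with Ier2 (r = 0.70, rho = 0.63, permutation p = 0.0098, adjusted p = 0.049, r = 0.48 without the 2 farthest). In the 14 of low Egr1 none of the 10 passed adjustment, the second Egr3 probe set having r = 0.57 and rho = 0.55 (permutation p = 0.032, adjusted p = 0.15, r = 0.58 without the 2 farthest) and Fos r = 0.60 and rho = 0.61 (permutation p = 0.019, adjusted p = 0.15, r = 0.58 without the 2 farthest). In early lymphomas the 6 of high Egr1 also held high Ier2 (median 11.0, highest 11.2, against a median of 10.1 and a highest of 10.4 in the other 19) and high the second Egr3 probe set (6.57 to 9.19 against 4.27 to 7.08). These tumours were picked by their Egr1 level, so the values are a description. Within the 19 none of 10 relations with Egr1 passed adjustment (the second Egr3 probe set r = 0.54, rho = 0.51, permutation p = 0.018, adjusted p = 0.18, r = 0.32 without the 2 farthest), nor did any within the 6 (Ier2 r = 0.64, rho = 0.71, exact permutation p = 0.22, adjusted p = 0.61, r = 0.36 without the 2 farthest).

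**Figure D5:**
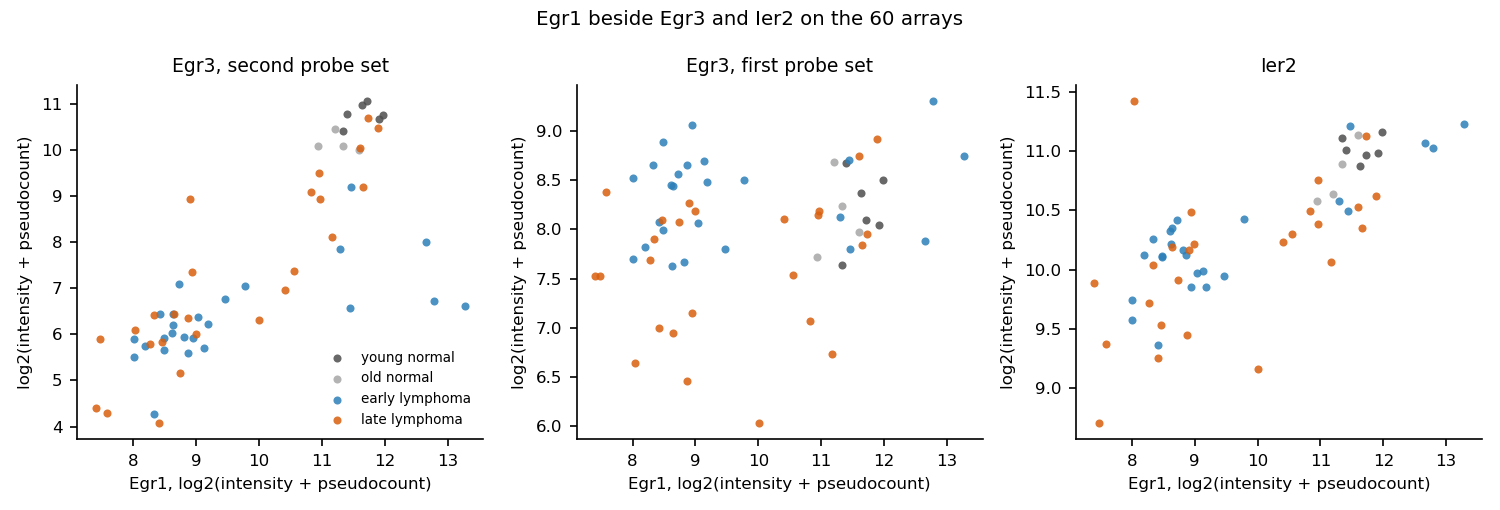
Log2(intensity + pseudocount) of Egr3 by each of its 2 probe sets and of Ier2 against that of Egr1 on the 60 arrays, coloured by early lymphoma, late lymphoma and normal tissue. The 6 early lymphomas with Egr1 of 11.29 or more stand apart, and in the 11 late lymphomas at 10.0 or more the second Egr3 probe set climbs with Egr1 (r = 0.91).

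The genes most like 5 of the members were ranked by Pearson's r across the 50 lymphomas among 12590 other genes, a description of arrays that share their scaling and cell makeup. Nearest to Fos were Socs3, a brake on cytokine signalling (0.66, with 0.41 in early and 0.78 in late lymphomas), and Dusp1, a MAP kinase phosphatase and immediate early gene (0.65, with 0.37 and 0.77), then Lipg, Rgs1 and Itgam at 0.58. Nearest to Junb was Ocln, a tight junction gene (0.73), then Mcam, Nod1, Tgfbi and Jak3 (0.60 to 0.62). Jak3 had 0.007 in early and 0.82 in late lymphomas. Nearest to Jun were Bsg (0.82), Selenok, Laptm4b, F11r and Laptm4a (0.76 to 0.79). The late r of Bsg was 0.86, and 0.43 without the 5 plasma-high lymphomas. Nearest to Btg2 were Mxd4, a Myc antagonist of the Max network (0.75), then Trabd, Gmppa, Selenom and Synrg (0.72 to 0.74). Trabd, Gmppa and Selenom had only 0.17, 0.30 and 0.19 in early lymphomas, against 0.83, 0.81 and 0.82 in late ones. Mxd4 had 0.67 in early and 0.79 in late lymphomas, and Synrg 0.46 and 0.80. Nearest to Egr1 were Nab2, an Egr corepressor and Egr target, then its relative Egr2, Plxna3, Hivep2 and Pxdc1, for which no r is given because of the clusters.

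Other genes of the pathway were read from 5 lists. Among other immediate early genes 18 of 20 were tested, and 15 fell in early and 14 in late lymphomas against normal, with none higher (list medians -1.41 and -1.16, all probe sets -0.12 and -0.09). Cd69, an activation marker of lymphocytes, changed by -3.63 ± 0.37 in early and -2.95 in late lymphomas. Rgs1, a brake on chemokine receptors, changed by -2.44 and -1.93, and Egr2 by -2.18 and -1.92. Klf6 changed by -2.07 in early lymphomas and Btg1, a relative of Btg2, by -1.82 in late ones. Between late and early lymphomas 3 rose and none fell (median 0.32): Klf6 (0.63 ± 0.18, adjusted p = 0.0090), the nuclear receptor Nr4a1 (0.55, adjusted p = 0.019) and the survival gene Mcl1 (0.30, adjusted p = 0.0080). The count was 1 to 6 over 11 alternatives, 1 of them without the 5 plasma-high lymphomas, and 5 without early lymphoma 1 or 3 or late lymphoma 111, 121 or 123 and 7 without early lymphoma 28. The T cell list, all of whose levels in lymphomas lay below normal tissue, moved with these falls (6 of 7 tested genes lower in early and 7 of 7 in late lymphomas), and so did the macrophage list (7 and 4 of 8), the list for stroma and endothelium (7 and 6 of 8) and the plasma cell list (4 and 1 of 5). Their part in the falls was not tested.

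Of the other AP-1, ATF and related bZIP genes 10 of 12 were tested. In early lymphomas 5 were lower than normal and 1 was higher, in late lymphomas 2 and 1 (medians -0.19 and -0.11). Batf3, a Jun partner, was -2.26 ± 0.32 in early and -1.78 in late lymphomas, Batf -1.05 and -0.76, and Batf2 -1.14 in early ones. Jdp2, a Jun-binding repressor, was -0.93 in early lymphomas, while Atf4, a factor of the amino acid response, was 0.66 in early and 0.64 in late lymphomas. Between late and early lymphomas 2 were higher and none lower (median 0.17), Jdp2 (0.53 ± 0.19, adjusted p = 0.034) and Mafg (0.30, adjusted p = 0.031). Neither was called with the RNA ratios in the fit or without the 5 plasma-high lymphomas, nor Mafg as a mean of its probe sets, and over 11 alternatives the adjusted p ran from 0.020 to 0.14 for Jdp2 and from 0.013 to 0.12 for Mafg. The Jdp2 call was also lost without early lymphoma 21 or late lymphoma 129, 136 or 137.

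All 10 serum response, ternary complex and Egr corepressor genes were tested, with 7 lower in early and 6 in late lymphomas against normal and none higher (medians -0.60 and -0.59). Nab2 was -2.10 ± 0.40 in early and -1.68 in late lymphomas. Elk3, a ternary complex factor, was -1.40 and -1.61, and Mrtfa, a coactivator of serum response factor, -0.93 and -0.88. Nab1 was -0.97 in early lymphomas. Between late and early lymphomas Creb1 (-0.43, adjusted p = 0.0046) and Srf (-0.32, adjusted p = 0.044) were lower and none was higher (median -0.05), and the Srf call was lost without any one of 26 of the 50 lymphomas. Of the kinases upstream of AP-1 9 of 14 were tested, with 6 lower and 1 higher in early and 6 lower in late lymphomas (medians -0.37 and -0.31), and none called between late and early (median 0.05). The 1 higher kinase lost its call without any one of 19 of the 35 arrays, and the 6 lower became 2 after centring in both comparisons and 2 in late lymphomas against old tissues alone. Rps6ka3, a kinase that ERK activates, was -1.08 in early and -1.14 in late lymphomas, and Map2k1, the kinase of ERK, -0.58 and -0.54.

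Heat shock genes, which rise with handling stress as the members can, were split. Of 10 tested, 5 were lower and 4 higher than normal in early lymphomas, 4 and 3 in late ones (medians -0.22 and -0.20), and none was called between late and early (median -0.08). The stress-inducible Hspa1a was -1.76 in early and -1.44 in late lymphomas and Hspa1b -1.69 and -1.14, while the mitochondrial chaperones Hspd1 (1.41 and 1.21) and Hspe1 (0.86 and 0.69) were higher. The time from dissection to freezing is not in the labels, and its part in the levels of the members was not tested.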

How the data were processed

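Total RNA (6 µg, biotin label) of 50 lymphomas and 10 normal tissues was hybridised to 1 array each, per the labels' protocols. The authors processed the arrays with MAS5, per the submitters' processing notes, and deposited intensities on a linear scale. The trimmed mean intensity (2% off each end) was 500.0 on every array, so the deposited values were already scaled to 1 target. The array annotation gives 34958 of the 45101 probe sets a single gene, 932 more than 1 and 9211 no gene. A genome build behind the arrays is not given in the sources used here.

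From the deposited intensity values log2(intensity + pseudocount) was computed, with a pseudocount of 15.7, the table's median divided by 10. Kept were 27094 probe sets above their array's median on at least 10 arrays, 64 control probe sets apart. Contrasts, slopes and absolute deviations were fitted with limma 3.58.1 in R 4.3.3 (lmFit, eBayes with trend, 2-sided), with Benjamini-Hochberg adjustment over all kept probe sets and a threshold of 0.05. Age slopes are per doubling of age. Pairs used 100000 permutations within groups in Python 3.11.15. The fit was tested on simulated data. The number of arrays limits the precision.

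The members, the lists and the tests were chosen with earlier results of these data known. A gene's representative probe set is the one of highest mean over all arrays. Named from each pathway list were up to 4 genes of the largest change in each of the 3 group comparisons that passed the test, and the 5 genes of highest r to 5 of the members. Alternatives were another pseudocount, filter and scaling, RNA ratios as covariates, gene means, all arrays in 1 fit, subsets of tissues and tumours (those without the 5 plasma-high lymphomas and with the second Egr3 probe set chosen after seeing the data), and leaving out each array.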

Additional observations from a re-analysis of the deposited data

Results flagged for a closer look

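Junb in young normal lymph node 3 had a log2 level of 9.51, the lowest of the 10 normal tissues and of the 6 young ones, with the next at 9.85. Its gap to the nearest tissue was large for the range in both groupings. Dixon's limit was looked at in 42 groups of 4 to 10 tissues, and chance flags about 1 in 20.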

How the results depend on the processing

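Counts of called members or pairs were recomputed under each setting, and apart from leaving out single arrays 91 stayed within 1.5 times of the main count and 15 did not. Between late and early lymphomas 5 members were called, 2 with the RNA ratios as covariates and 2 without the 5 plasma-high lymphomas. Late against normal, 5 became 3 after centring, 3 without the 6 lymphomas of low B lineage level and 1 against the 4 old tissues alone, and 3 to 5 when 1 array was left out (3 without old normal 8). Spread, 2 members, became 1 with the smaller pseudocount, 1 with no filter, 1 after centring and 4 with gene means. It became 0 with RNA ratios (3 at an unadjusted p under 0.05 in limma) and 0 without the 5 lymphomas (2 unadjusted). Of all 27094 probe sets 4474 were under 0.05 unadjusted with RNA ratios and 4489 without the 5 lymphomas. The RNA ratio, 2 members, gave 1 with no filter, 1 after centring and 0 without the 5 lymphomas (0 unadjusted). Old against young tissue gave 1 with Egr3 by its second probe set.

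These signs turned, the cause of each being not tested. Egr3 by its second probe set was 0.80 (late against early) and -4.14 (early against normal), and as a mean of its probe sets 0.059 and -2.001. With RNA ratios Egr1 was -0.012 (late against early), Btg2 -0.055 (late against normal) and Jun -0.47 (interaction). Centring gave Egr1 -0.019 (late against early), Fosb 0.027 (early against normal) and, late against normal, Fos 0.064, Jund 0.065, Atf3 0.19 and the second Btg2 probe set 0.23. Quantile normalization gave Egr1 -0.025, Fosb 0.12 and, late against normal, Fos 0.091, Atf3 0.30 and Btg2 -0.13. Late against normal, lymph nodes alone gave the second Btg2 probe set 0.010, and old tissues alone Fos 0.085 and Btg2 -0.090. Without the low B lineage lymphomas Junb was 0.039 (late against early) and Btg2 -0.024 (late against normal). Without the 5 plasma-high lymphomas Btg2 was -0.19 (late against normal), and the RNA ratio slopes were 0.66 for Jund and 1.19 for Btg2. None of the values that turned passed the test in the main setting apart from Egr3 and the Jund slope. With 1 array left out, Egr1 ranged from -0.091 to 0.16 (late against early) and, late against normal, Atf3 from -0.17 to 0.035, the second Btg2 probe set from -0.089 to 0.047 and Fosb from -0.00069 to 0.11. The late over early differences of Fos (0.85 to 0.98), Jun (0.78 to 1.01), Jund (0.34 to 0.44), Btg2 (0.65 to 0.77) and Egr3 (-0.74 to -0.62) kept their calls.

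Early lymphomas and normal tissues share 9 title numbers. With these as a replicate block 7 members were called between them, Atf3 losing its call, and Fosb was 0.033. Same-numbered arrays did not deviate together (correlations -0.11 to 0.08). The data thus do not show that the numbers pair the samples, and 9 single pairs cannot settle it.

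Probe sets called in all moved by more than 1.5 times as follows: late against early 5951, 1745 with RNA ratios and 2367 without the 5 lymphomas; late against normal 14849 and 9785 against old tissues; old against young 374, 3 with RNA ratios and 14 with all arrays in 1 fit; interaction 7, 33 with no filter, 4 with the filter of 30 arrays, 17 after quantile normalization, 4 after centring, 3 with RNA ratios and 14 without the 5 lymphomas; age in early lymphomas 2434, 5138 with no filter and 1214 after quantile normalization; age in late lymphomas 3, 6 with the filter of 30 arrays, 6 after centring and, in limma, 0 with RNA ratios (3172 unadjusted) and 0 without the 5 lymphomas (2550 unadjusted); spread 2738, 1696 with no filter, 372 with RNA ratios and 495 without the 5 lymphomas; RNA ratio 3774 and 0 without the 5 lymphomas (2013 unadjusted). Fits on gene means tested fewer features and are left aside here. With 1 array left out the interaction gave 1 to 18, and old against young 179 to 386 (179 to 241 without young normal 1, 3 or 4 or old normal 8 or 10). Dim signal limits Fosb, the second Jund probe set and, in lymphomas, the second Egr3 probe set, and 10 normal tissues limit the old against young contrast.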
